A study of Mus musculus with 68 samples.

Results

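The genes followed here encode the MYC, MAX and MXD network: the partner protein MAX (gene Max), the activating partners MYC, MYCN and MYCL (Myc, Mycn, Mycl), and the repressing partners MXD1, MXD3, MXD4, MXI1, MNT and MGA (Mxd1, Mxd3, Mxd4, Mxi1, Mnt, Mga). They are 10 of the 24421 gene symbols listed in every RNA-seq library and were taken by gene name. The study profiled mouse embryos made by somatic cell nuclear transfer (SCNT), in which the nucleus of a cumulus cell replaces that of the oocyte, and then tested the knockdown of Max and Mcrs1 in fertilized embryos.

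MAX and its partners are basic helix-loop-helix leucine zipper proteins that bind a short DNA motif, the E-box CACGTG, as dimers. MYC proteins bind DNA with MAX and recruit histone acetyltransferases, whereas the MXD proteins and MNT compete for the same MAX and bring in the SIN3 and histone deacetylase corepressor. MGA, the largest partner, joins MAX to a variant Polycomb complex, PRC1.6, known for keeping germline genes silent in embryonic cells, and MYC and MYCN are known for supporting growth and proliferation of the epiblast.

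Smart-seq2 libraries were made from about 10 blastomeres per reaction. Cumulus cells (CCs, 3 libraries), the nuclear donors, were compared with SCNT embryos reconstructed in enucleated oocytes of B6D2F1 mice and activated with SrCl2. The SCNT embryos were taken at 6 h and 14 h post activation (6 hpa and 14 hpa, both 1-cell), at the early and late 2-cell stages (E2C and L2C), with 4 cells (4C), with 8 cells (8C) and as morulae. Blastocysts were split into trophectoderm (TE) and inner cell mass (ICM), with 5 libraries at 4C and 6 in each of the other groups. The fertilized embryos were of C57BL/6j mice, were injected as zygotes with a morpholino (MO) against Max or Mcrs1 or served as controls, and gave 2 libraries each of ICM and TE per injection. Control libraries carry the word control in their title and untreated in another label, while the protocol names a random control MO, so what the controls received is not settled by the labels. The paper describes the sequenced control ICM and TE as injected with the control MO, at a higher concentration than the Max or Mcrs1 MO. The part of this dose in the differences from controls was not tested. The Max and Mcrs1 MOs were injected at different concentrations, and a MO blocks translation or splicing of its target, so a level of RNA does not measure the knockdown by itself. Mcrs1 encodes a subunit of histone acetyltransferase and chromatin remodelling complexes and is not a network member.

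Levels are given in TPM, the transcript abundance per length, on which genes can be compared within a library. Differences are log2 fold changes of TPM + 1 with their SE, from 1 limma model for the 56 CC and SCNT libraries (12084 genes with a mean of at least 1 TPM) and another for the 12 fertilized libraries (11219 genes). Genes were called higher or lower where the Benjamini-Hochberg adjusted p of limma, over all genes tested, was under 0.05 and the level changed 2-fold or more. The log2(TPM + 1) scale understates the changes of low genes. Of the 10 members, 8 passed the level filter in the CC and SCNT libraries (all but Mycl and Mnt) and 9 in the fertilized libraries (all but Mxd1). The labels do not say that libraries of a group came from separate embryo pools, so p-values measure the spread between libraries, and fewer cells of a type cannot be told apart from less RNA per cell.

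The 68 libraries held 1.00 to 5.17 Gb of aligned sequence and 6177 to 11771 genes at 1 TPM or more. In the SCNT ICM, libraries 1 to 3 had 6177 to 6771 such genes and libraries 4 to 6 had 9011 to 10032. Libraries 1 to 3 were also lower at 6 hpa, 4C, 14 hpa (7438 to 9103 against 10160 to 10564) and in the SCNT TE (8401 to 8728 against 9284 to 9812). At E2C they were higher (10122 to 10917 against 9903 to 9967), and at L2C, 8C and morula the sets overlapped. At 4C the reference genes held 44.0 to 53.1% of the TPM in libraries 1 to 3 and 73.5 and 75.65% in the others. For this reason, some differences are also given for libraries 1 to 3 and 4 to 6 apart. These are differences called in all libraries or in 1 of these sets but not in the other. The summed TPM of cumulus markers was 1995 to 3242 in CCs and at most 60.4 elsewhere, while oocyte markers summed to at least 629 in every library from 6 hpa to L2C. The 8 TE markers summed to 2034 to 8514 in SCNT ICM and 5143 to 16239 in SCNT TE, so these groups overlap. In the fertilized ICM controls the same sum was 16307 in replicate 1 and 622 in replicate 2, against 15211 to 21296 in the 6 fertilized TE libraries. Replicate 1 therefore carries TE markers at the level of TE libraries, although the ICM markers of both controls (828 and 951) lie above those of every TE library (180 to 325). The MO results of Max, Mga, Mycn, Mxd4, Mcrs1 and the partner lists in the ICM are therefore given with and without it. Without it, 1 ICM control is left, with a TE marker sum of 622. The sums were 2775 and 5918 in Max MO ICM and 11674 and 8146 in Mcrs1 MO ICM. The TE markers then had a median log2 fold change of 1.42 after Max MO and 3.49 after Mcrs1 MO. The part of TE cells in the values without replicate 1 was not tested.

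Promoter windows were taken from RefSeq (GRCm38.p6; 250 bases before to 50 after the start), in which 9 of the 10 members had 11 windows and Myc had none. The E-box CACGTG, a palindrome, was searched together with the related MYC:MAX motif CACGCG on both strands, and the motifs do not overlap in these windows. CACGTG was found in the windows of 3 members, Max, Mxd4 and Mnt, and in 7.15% of all 32851 promoter windows. CACGCG was found in those of Mga and Mycl, and in 9.27% of all windows. The 4 promoters below belong to MAX itself and to repressing partners whose RNA is described after MO injection, are read 5′ to 3′ on the gene's strand, and carry the motif in capitals. They end at the transcription start, that of Max 3 bases after it. In a check of the reading direction against annotated transcripts, Mxd4, Mnt and Mga were found in the gene's direction and Max was not found. The E-box of Max starts 3 bases before the transcription start, those of Mnt and Mxd4 start 123 and 219 bases before it, and the CACGCG of Mga, which reads CGCGTG on its own strand, starts 21 bases before it.
Max, chr12:76962246-76962498, minus strand: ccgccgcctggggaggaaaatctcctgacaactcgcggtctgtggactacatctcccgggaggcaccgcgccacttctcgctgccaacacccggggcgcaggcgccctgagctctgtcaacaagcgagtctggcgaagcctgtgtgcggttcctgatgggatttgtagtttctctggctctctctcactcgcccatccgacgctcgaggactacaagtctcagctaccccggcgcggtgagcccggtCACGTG
Mxd4, chr5:34187711-34187960, minus strand: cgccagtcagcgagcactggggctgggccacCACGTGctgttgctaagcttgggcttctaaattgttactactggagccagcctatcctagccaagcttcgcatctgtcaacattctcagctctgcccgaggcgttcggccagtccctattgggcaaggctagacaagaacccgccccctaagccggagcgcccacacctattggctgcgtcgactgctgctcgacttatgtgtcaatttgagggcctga
Mnt, chr11:74830674-74830923, plus strand: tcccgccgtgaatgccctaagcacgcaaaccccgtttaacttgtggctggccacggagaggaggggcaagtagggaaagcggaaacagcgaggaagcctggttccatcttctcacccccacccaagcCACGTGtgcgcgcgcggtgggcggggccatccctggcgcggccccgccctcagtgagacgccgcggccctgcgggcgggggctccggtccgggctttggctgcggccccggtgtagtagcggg
Mga, chr2:119896978-119897227, plus strand: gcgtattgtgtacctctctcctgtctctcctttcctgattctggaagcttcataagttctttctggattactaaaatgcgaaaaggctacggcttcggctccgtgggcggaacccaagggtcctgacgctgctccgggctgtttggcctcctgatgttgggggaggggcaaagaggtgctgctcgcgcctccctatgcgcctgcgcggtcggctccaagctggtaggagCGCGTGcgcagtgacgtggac
A match in a window is a description of the sequence and not a measured binding site.

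The largest part of the network's RNA changed between MAX, its activating partners and its repressing partners from stage to stage. In CCs the MYC family held a median 62.2% of the summed TPM of the 10 genes, and at 6 hpa and 14 hpa it held 0.92% and 0.69%. Max itself rose from 4.52% of the sum in CCs to 62.1% at 14 hpa and 60.6% at E2C. By median the MXD family was the largest part at 6 hpa (51.4%), L2C (38.4%) and morula (43.2%), and the MYC family again at 8C (48.5%). The morulae differed by set, with the MYC family at 32.2, 48.1 and 33.6% and the MXD family at 28.7, 23.3 and 21.7% in libraries 1 to 3, and the MXD family at 58.7, 57.7 and 68.8% in libraries 4 to 6. At L2C, MNT and MGA led in libraries 1 and 2 (34.4 and 42.7%), and the MXD family in libraries 3 to 6 (35.2, 41.6, 46.8 and 46.9%). At 4C the parts were close to each other, with 23.4% MYC family, 21.2% Max, 28.5% MXD family and 31.6% MNT and MGA. In the SCNT TE, Max and the MYC family had similar medians (33.7% and 33.3%). The median sum of all 10 genes ranged from 39.0 TPM at 8C to 134 TPM in CCs, so a share can move through the other genes. Libraries of the SCNT ICM differed widely, with Max at 68.9% of the sum in library 3 and MNT and MGA at 90.1% in library 2, where the 10 genes summed to 17.6 TPM.

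**Figure D1:**
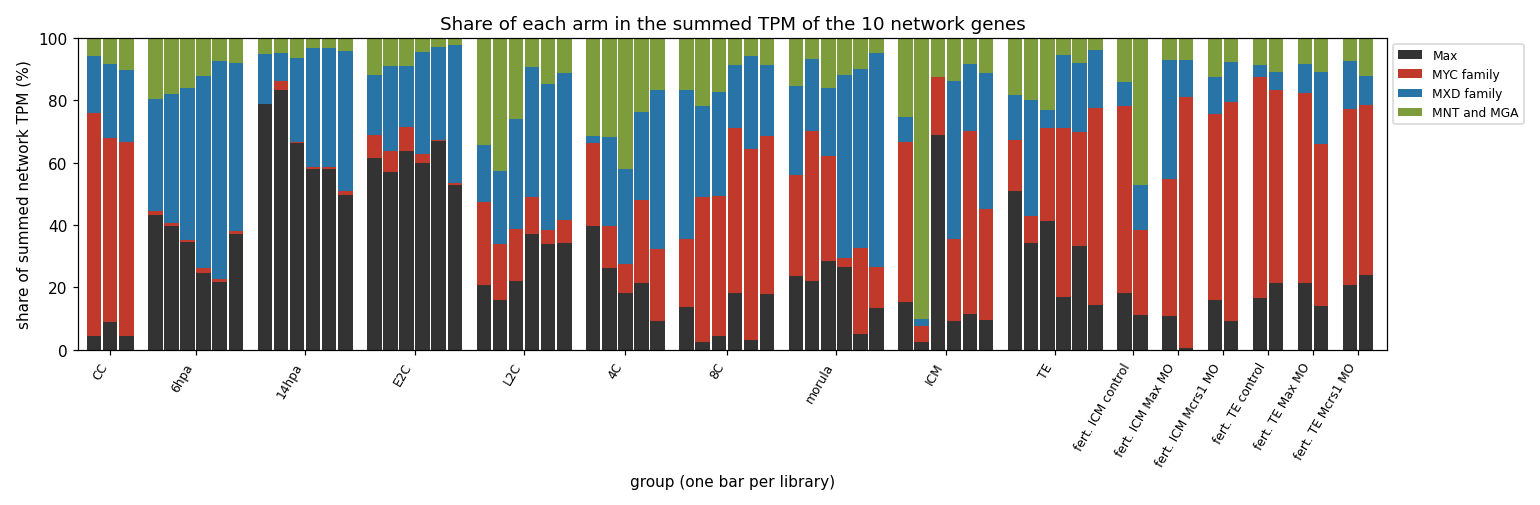
Share of the network's summed TPM (percent, y axis) held by Max, the MYC family, the MXD family and MNT with MGA, as 1 stacked bar per library, by group (x axis). Max is the largest part at 14 hpa (median 62.1%) and E2C (60.6%) and the MYC family in CCs (62.2%), while the SCNT ICM libraries differ widely among themselves.

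Between successive stages, 17 differences of members were called. From 6 to 14 hpa 1 of the 8 members tested was higher and 0 lower, against 6.17% of all genes called higher and 5.02% lower. From 14 hpa to E2C no member was called, 1 had an unadjusted limma p under 0.05, and 2.9% of all genes were called higher and 3.1% lower. The L2C stage, when the embryonic genome becomes active, brought the most calls, with 3 members higher and 2 lower against 23.6% and 11.1% of all genes. From L2C to 4C, 4 of 8 members were lower and 0 higher (26.5% and 11.7% of all genes). The step to 8C had 1 member higher and 1 lower (11.6% and 8.39% of all genes), and that to the morula 1 higher and 0 lower (9.05% and 3.53%). Against the morula, 1 member was higher and 1 lower in the ICM (8.93% and 15.1% of all genes) and likewise in the TE (11% and 10.9%). ICM and TE themselves differed in no member, with 2 at an unadjusted limma p under 0.05, while 1.54% of all genes were called higher and 4.25% lower in the ICM. The median log2 fold change of all genes was 0.26 from E2C to L2C and -0.33 from L2C to 4C. Quantile normalization, which removes such shifts, moved the share of higher among called genes from 68% to 48.2% and from 30.7% to 51.7% in these steps, from 71.9% to 48.2% from 8C to morula, and from 26.6% to 47.3%, 37.2% to 47.7% for ICM against TE and ICM against morula. Dividing TPM by the sum of the reference genes moved it from 55.1% to 66.8% from 6 to 14 hpa, from 68% to 79.2% from E2C to L2C and from 58% to 32.1% from 4C to 8C.

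**Figure D2:**
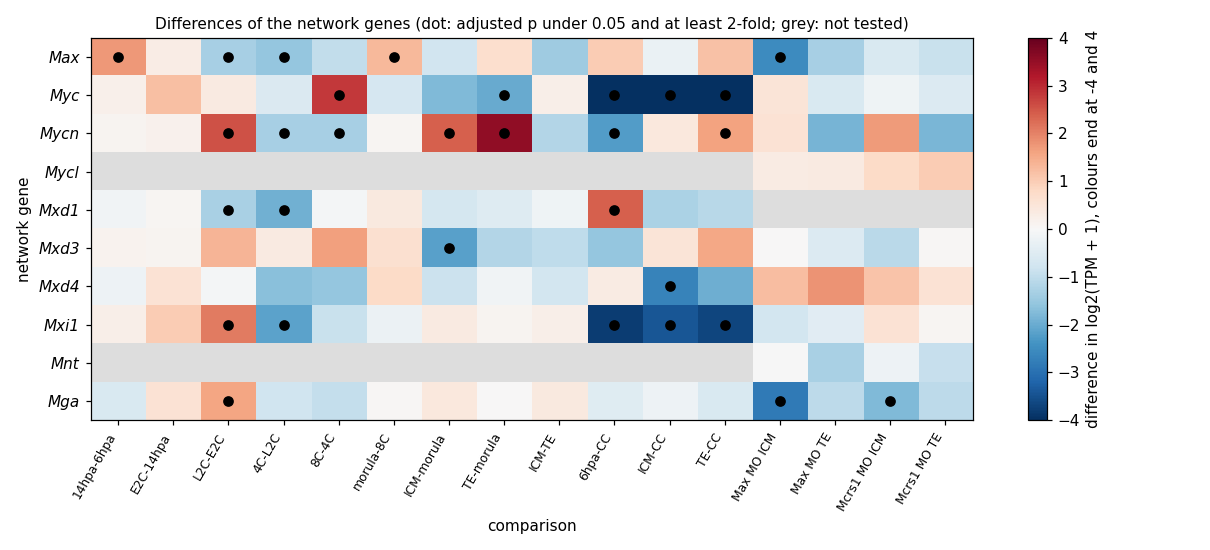
Difference in log2(TPM + 1) (colour, ending at -4 and 4) of each member (rows, grey where not tested) in each comparison (columns), with a dot on called differences. Calls gather at the steps into L2C (5) and out of it (4), in the comparisons with CCs and, for Max and Mga, after Max MO.

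Max, the shared partner of the other members (chr12:76937269-76962248, minus strand, mm10), was highest around the 1-cell to 2-cell transition. Its level was 12.4, 14.3 and 21.7 TPM at 6 hpa, 34.1, 58.3 and 73.2 TPM at 14 hpa, and 46.8, 70.2 and 84.3 TPM at E2C, each as the lowest, median and highest of 6 libraries. The 6 hpa and 14 hpa groups do not overlap, and the rise was 1.73 ± 0.46 (SE) on the log2 scale (adjusted p = 0.00606). In libraries 1 to 3 alone it was 1.35 and was not called (adjusted p = 0.279). Max at 14 hpa was 34.1 to 50.9 TPM in libraries 1 to 3 and 65.8 to 73.2 TPM in libraries 4 to 6. The ranges of these sets were 46.8 to 67.6 and 72.9 to 84.3 TPM at E2C, and they overlapped at 6 hpa. At L2C, Max spread over 11.8, 26.8 and 58.5 TPM, with libraries 1 to 3 between 11.8 and 17.2 TPM and libraries 4 to 6 between 36.4 and 58.5 TPM. The difference from E2C was -1.32 ± 0.46 (SE, adjusted p = 0.0189), with overlapping groups. The call is lost in libraries 4 to 6 alone (-0.81, adjusted p = 0.147), without replicate 1 (-1.15, adjusted p = 0.0841) and with TPM rescaled over the reference genes (adjusted p = 0.0744).

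Max then fell to 7.06, 14.3, 9.69, 8.79 and 4.54 TPM in the 5 libraries of 4C, a difference of -1.54 ± 0.48 (SE) from L2C (adjusted p = 0.00791). Here libraries 1 to 3 gave -0.55 (adjusted p = 0.609) and libraries 4 to 6 gave -2.64 (adjusted p = 1.0e-04). Leaving out replicate 4 or 5 also ended the call (adjusted p = 0.0592 and 0.0742). The 8C embryos had 0.879, 3.86 and 11.1 TPM. They were called lower than 4C in libraries 1 to 3 alone (-1.92, adjusted p = 0.0463) and with TPM rescaled over the reference genes (-1.47, adjusted p = 0.0221). Morulae had 2.49, 11.5 and 22.9 TPM. The rise from 8C to the morula (1.31 ± 0.46 SE, adjusted p = 0.0482) was just past the threshold. It was 2.58 in libraries 1 to 3 and 0.03 in libraries 4 to 6, and was not called without replicate 1, 2, 3 or 4 (adjusted p = 0.102, 0.278, 0.187 and 0.072).

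In SCNT blastocysts Max was 0.440, 6.69 and 32.1 TPM in the ICM and 10.6, 17.8 and 27.6 TPM in the TE. Most ICM libraries lie below the TE libraries, but ICM library 3, at 32.1 TPM, is above all of them. The ICM to TE difference was -1.42 ± 0.46 (SE) and was not called (adjusted p = 0.0524), and without replicate 3 it was -1.97 (adjusted p = 0.0108). In libraries 4 to 6 alone the ICM was called lower than the TE (-1.49, adjusted p = 0.0361) and the TE higher than the morula (1.21, adjusted p = 0.0384). CCs had 6.75, 11.8 and 4.71 TPM. By mean level the groups ranked E2C, 14 hpa, L2C, TE, 6 hpa, morula, ICM, 4C, CC and 8C. The genes most like Max over the 10 group means were Oas1f (r = 0.933), Lhpp (r = 0.926) and Mea1 (r = 0.924), of 7917 genes compared.

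Across all 10 members, none of the 90 pairs of groups next to each other in such an order differed after adjustment over the 90 two-sided exact permutation tests, and 6 had an unadjusted p under 0.05. The smallest p was that of Mxi1 between L2C and E2C (exact permutation p = 0.00216, the smallest that 6 against 6 libraries can give, adjusted p = 0.195). Neighbours in an order of means are also the groups closest in level. These tests could therefore hardly have found a difference, and no conclusion is drawn from their outcome.

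**Figure D3:**
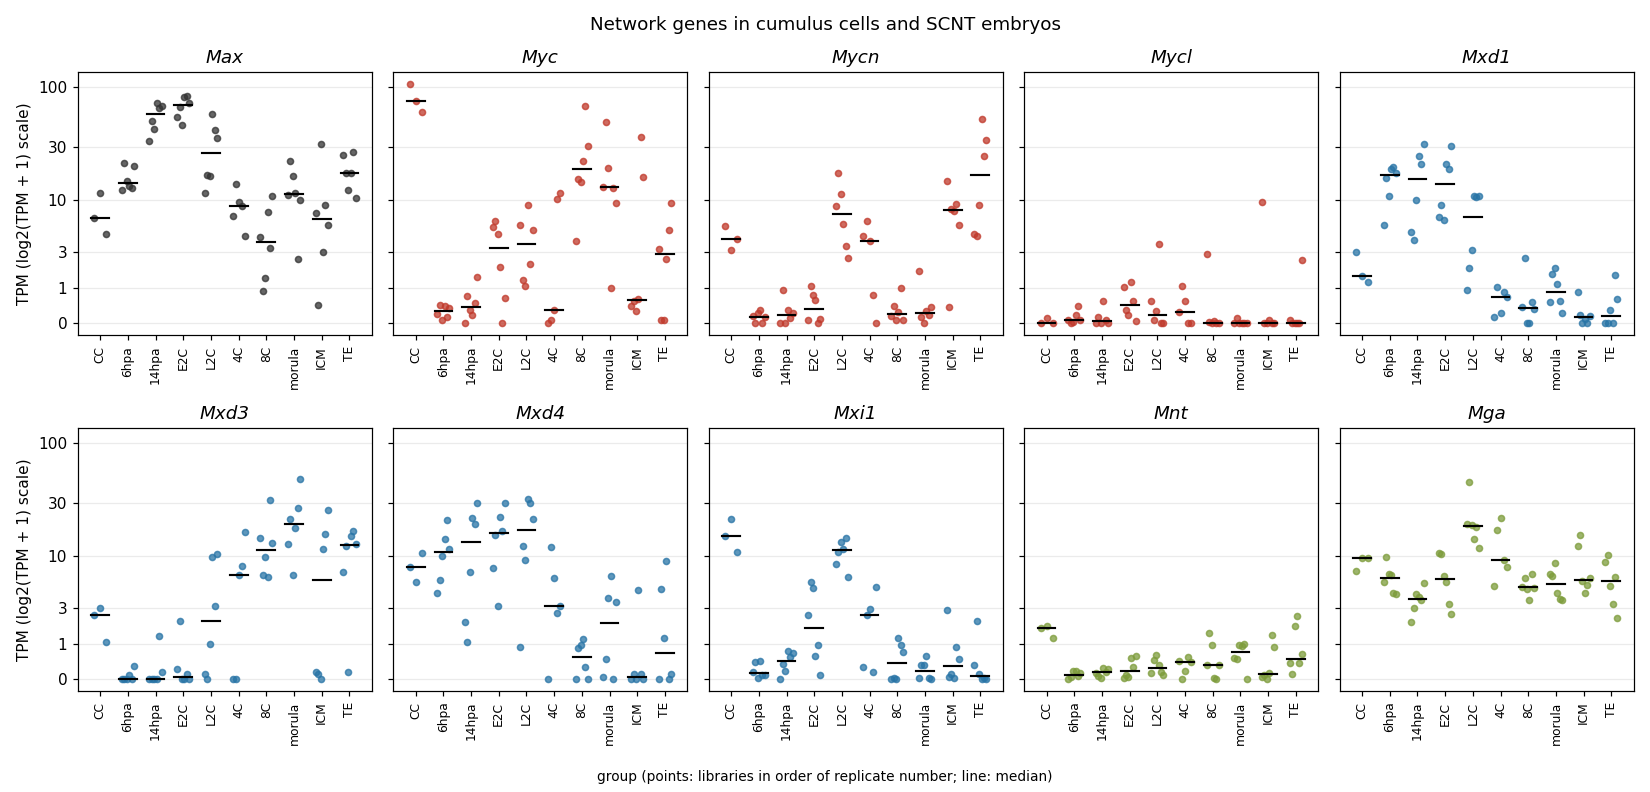
TPM of each member (y axis, log2(TPM + 1) scale) in every CC and SCNT library (points, in order of library number) with the group median (line), by group (x axis). Max peaks at 14 hpa and E2C, Myc in CCs and again at 8C, and Mycn at L2C and in the blastocyst.

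Myc (chr15:61985341-61990361, plus strand), the broadly expressed growth regulator of the family, was abundant in the donor cells and nearly undetected after transfer. CCs held 107, 76.0 and 60.6 TPM, whereas no 6 hpa library exceeded 0.435 TPM. The groups do not overlap, and the difference was -5.99 ± 0.89 (SE, adjusted p = 5.6e-08). Of the 8 members tested, 1 was higher and 3 were lower at 6 hpa than in CCs, where 25.8% of all genes were called higher and 35.6% lower. Oocyte markers are high and cumulus markers low at 6 hpa, and their part in these differences was not tested.

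Myc reached 0 to 1.47 TPM at 14 hpa, 0, 3.33 and 6.37 TPM at E2C, and 1.06, 3.67 and 8.98 TPM at L2C. From 14 hpa to E2C it rose in libraries 1 to 3 alone (2.33, adjusted p = 0.00583). The 4C libraries fell into 0, 0.0659 and 0.291 TPM in libraries 1 to 3 and 10.4 and 11.7 TPM in libraries 4 and 5, and in libraries 1 to 3 alone 4C was called lower than L2C (-1.52, adjusted p = 0.0481). At 8C, Myc was 4.02, 19.2 and 69.2 TPM, 2.82 ± 0.76 (SE) above 4C (adjusted p = 0.00528), with overlapping groups. The rise was 3.30 in libraries 1 to 3 (adjusted p = 2.3e-04) and 1.65 in libraries 4 to 6, where it was not called (adjusted p = 0.216).

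Morulae had 0.997, 13.2 and 49.8 TPM of Myc, SCNT ICM 0.261, 0.566 and 36.8 TPM, and SCNT TE 0.0580, 2.87 and 9.38 TPM. The step from 8C to the morula was called in libraries 4 to 6 alone (-2.501, adjusted p = 0.0311). Myc was lower in the TE than in the morula (-2.002 ± 0.73 SE, adjusted p = 0.0357). The value was -3.87 in libraries 1 to 3 and -0.13 in libraries 4 to 6, and leaving out replicate 1, 2 or 3 ended the call (adjusted p = 0.0625, 0.287 and 0.198). The difference between ICM and morula (-1.77 ± 0.73 SE) was not called (adjusted p = 0.0632). It was called in libraries 1 to 3 (-4.15, adjusted p = 5.9e-06). By mean level Myc ranked CC, 8C, morula, ICM, 4C, L2C, TE, E2C, 14 hpa and 6 hpa. Among the genes nearest to it were Irf9 (r = 0.958) and Bnip3l (r = 0.931) over the 10 group means.

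Mycn (chr12:12936093-12941836, minus strand), the family member known from neural and embryonic progenitors, rose in a different set of stages. It was 5.67, 3.15 and 4.21 TPM in CCs and at most 1.07 TPM in any library from 6 hpa to E2C, and the difference of 6 hpa from CCs was -2.22 ± 0.58 (SE, adjusted p = 7.1e-04), without overlap. L2C brought 2.59, 7.46 and 18.0 TPM, above every E2C library, a rise of 2.55 ± 0.47 (SE, adjusted p = 1.5e-05) that was called in both sets of libraries (3.09 and 2.02). The level was 4.49, 6.36, 4.03, 0.717 and 0 TPM at 4C, below L2C (-1.32 ± 0.49 SE, adjusted p = 0.0271). That fall was not called under quantile normalization (-0.70, adjusted p = 0.236), in libraries 1 to 3 alone (-1.18, adjusted p = 0.148), or without replicate 3, 4 or 5.

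At 8C no library exceeded 0.996 TPM of Mycn. The step from 4C was -1.33 ± 0.49 (SE, adjusted p = 0.0448), and it was 0.08 in libraries 4 to 6, where 4C was already low. It was also lost without replicate 1, 2, 3 or 6, under quantile normalization and with the replicate number as a block. Morulae stayed between 0 and 1.77 TPM. The blastocyst differed from this, with 0.379, 8.14 and 14.95 TPM in SCNT ICM and 4.45, 17.2 and 53.6 TPM in SCNT TE. The rise over the morula was 2.38 ± 0.47 (SE, adjusted p = 9.4e-05) in the ICM and 3.54 ± 0.47 (SE, adjusted p = 4.4e-08) in the TE, where the groups do not overlap. Both were called in each set of libraries. ICM and TE were not called different (-1.16 ± 0.47 SE, adjusted p = 0.140), except in libraries 4 to 6 (-2.12, adjusted p = 2.7e-04) and without replicate 1 (-1.69, adjusted p = 0.0433).

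By mean level Mycn ranked TE, L2C, ICM, CC, 4C, morula, E2C, 8C, 14 hpa and 6 hpa. The genes nearest to it were Tead2 (r = 0.937), Gchfr (r = 0.931) and Ncapd2 (r = 0.915), over 10 group means and 7918 genes. Mycl (chr4:122995931-123002480, plus strand), the third MYC gene, stayed at or below 3.66 TPM in every CC and SCNT library but 1, SCNT ICM library 1 with 9.70 TPM. 

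Mxd1 (chr6:86647045-86669159, minus strand), known to rise when cells leave the cycle and differentiate, had its highest group means from 6 hpa to E2C. Mxd4 was also present at these stages, with a lower mean than Mxd1 at 6 hpa and 14 hpa and a higher one at E2C. CCs held 3.01, 1.498 and 1.25 TPM of Mxd1 and 6 hpa embryos 5.76, 17.0 and 19.99 TPM. The difference was 2.41 ± 0.53 (SE, adjusted p = 9.0e-05), without overlap. The level was 4.10, 15.9 and 31.95 TPM at 14 hpa, 6.46, 14.2 and 30.6 TPM at E2C and 0.907, 6.93 and 11.1 TPM at L2C. All of libraries 1 to 3 lay below all of libraries 4 to 6 at each stage from 6 hpa to L2C. At 14 hpa, for example, their ranges were 4.10 to 10.1 and 21.6 to 31.95 TPM. The difference of L2C from E2C was -1.29 ± 0.43 (SE, adjusted p = 0.0142) and was lost at a pseudocount of 0.1 (-1.54, adjusted p = 0.101). At 4C no library exceeded 1.04 TPM, -1.92 ± 0.45 (SE) from L2C (adjusted p = 4.6e-04), with -1.03 in libraries 1 to 3 (adjusted p = 0.118) and -2.76 in libraries 4 to 6. Mxd1 stayed at or below 2.57 TPM in every later SCNT library, and the TE was called lower than CCs in libraries 1 to 3 alone (-1.38, adjusted p = 0.029). Its group means ranked 14 hpa, E2C, 6 hpa, L2C and CC before all others.

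Mxd4 (chr5:34176580-34187710, minus strand), another MXD repressor, was spread widely at the same stages. All of libraries 1 to 3 lay below all of libraries 4 to 6 at each stage from 6 hpa to L2C. The ranges were 4.35 to 10.2 and 11.7 to 21.3 TPM at 6 hpa, and 1.07 to 7.17 and 19.8 to 30.1 TPM at 14 hpa. They were 3.18 to 15.7 and 17.0 to 30.2 TPM at E2C, and 0.876 to 12.6 and 21.9 to 32.7 TPM at L2C. The lowest, median and highest values were 4.35, 10.96 and 21.3 TPM at 6 hpa, 3.18, 16.4 and 30.2 TPM at E2C and 0.876, 17.3 and 32.7 TPM at L2C. No step between successive stages was called, the nearest being L2C to 4C (-1.66 ± 0.70 SE, adjusted p = 0.0505). That step was called under 6 alternatives, namely in libraries 4 to 6 alone (-2.88, adjusted p = 0.0056), with the replicate block (adjusted p = 0.0221), with TPM rescaled over the reference genes (-2.03, adjusted p = 0.0194), with the filter at a mean of 5 TPM (adjusted p = 0.0457) and without replicate 1 or 2 (adjusted p = 0.0441 and 0.0296). The step from 4C to 8C was called with the block (-1.61, adjusted p = 0.0373), with rescaled TPM (-1.94, adjusted p = 0.0469) and without replicate 1 (-1.96, adjusted p = 0.0412). At 8C the highest library had 1.20 TPM, and SCNT ICM had 0, 0.046 and 4.73 TPM against 5.62, 7.96 and 10.7 TPM in CCs. The difference between ICM and CCs was -2.68 on the log2 scale and was called. Without replicate 3 this call was lost (-2.39, adjusted p = 0.0705). By mean level the order was L2C, E2C, 14 hpa, 6 hpa, CC, 4C, TE, morula, ICM and 8C.

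Mxd3 (chr13:55325168-55329730, minus strand), the MXD gene tied to S phase in dividing cells, belonged to the later stages. It was at most 2.13 TPM from 6 hpa to E2C, 6.35, 11.5 and 32.02 TPM at 8C and 6.63, 19.9 and 48.5 TPM at the morula. Only 1 of its 9 steps was called in all libraries, a difference of -2.18 ± 0.71 (SE) from the morula to the ICM (adjusted p = 0.0168), where ICM had 0, 5.97 and 26.3 TPM. The difference was -3.63 in libraries 1 to 3 but -0.72 in libraries 4 to 6 (adjusted p = 0.279), and was not called without replicate 1 or 2 (adjusted p = 0.0734 and 0.0997). The step from E2C to L2C was called in libraries 4 to 6 alone (2.97, adjusted p = 2.4e-05) and without replicate 2 (1.95, adjusted p = 0.0414), and that from 4C to 8C in libraries 1 to 3 alone (2.48, adjusted p = 0.0169) and under quantile normalization (1.69, adjusted p = 0.0374). Its group means ranked morula, 8C, TE, ICM, 4C, L2C, CC, E2C, 14 hpa and 6 hpa. Over the 10 group means, Mxd3 and Mxd1 had r = -0.841 and Mxd1 and Mxd4 r = 0.864, as a description of 10 points that share libraries.

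Mxi1 (chr19:53310506-53375810, plus strand), the MXD-family protein also known as MXD2, was high in CCs with 15.3, 21.7 and 10.9 TPM. No 6 hpa library exceeded 0.408 TPM, a difference of -3.80 ± 0.45 (SE, adjusted p = 1.7e-10). The level was 0.0814, 1.73 and 5.63 TPM at E2C and 6.31, 11.3 and 14.7 TPM at L2C, and these groups do not overlap. The rise was 2.06 ± 0.37 (SE, adjusted p = 8.6e-06), with 1.20 in libraries 1 to 3 (adjusted p = 0.0748) and 2.93 in libraries 4 to 6. In libraries 1 to 3 alone E2C was already called above 14 hpa (2.15, adjusted p = 0.00324). At 4C every library (at most 5.03 TPM) lay below every L2C library, a difference of -2.15 ± 0.39 (SE, adjusted p = 7.5e-06) that was called in both sets. From 8C on, no SCNT library exceeded 2.85 TPM, and the highest group means were those of CC, L2C, E2C and 4C, in this order.

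Mga (chr2:119897228-119969581, plus strand), the scaffold of PRC1.6, was detected above 2 TPM in every CC and SCNT library. It was 2.06, 3.80 and 5.58 TPM at 14 hpa, 2.58, 6.07 and 10.8 TPM at E2C and 11.996, 18.8 and 45.8 TPM at L2C. The E2C and L2C groups do not overlap, and the rise was 1.58 ± 0.34 (SE, adjusted p = 1.7e-04), called in both sets (1.42 and 1.74). The fall from 4C to 8C (-0.96 ± 0.36 SE, adjusted p = 0.0464) was under 2-fold and so not called. It was called with TPM rescaled over the reference genes (-1.42, adjusted p = 0.00621) and without replicate 1 (-1.18, adjusted p = 0.0273). The fall from L2C to 4C was called only under such alternatives, with rescaled TPM (-1.01, adjusted p = 0.033) and without replicate 3 (-1.03, adjusted p = 0.0479). CCs had 7.33, 9.61 and 9.57 TPM, and SCNT ICM and TE medians were 5.98 and 5.78 TPM. Ranked by mean, Mga was highest at L2C, followed by 4C, CC, ICM, E2C, 6 hpa, TE, morula, 8C and 14 hpa. Srsf10 (r = 0.901), Arl5b (r = 0.897) and Yod1 (r = 0.874) were nearest to Mga over the group means. Mnt (chr11:74830924-74845725, plus strand), the most widely expressed MAX-binding repressor in somatic cells, was 1.69, 1.82 and 1.23 TPM in CCs and had a median of at most 0.706 TPM at every SCNT stage.

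Against the donor cells, 3 members were lower and 0 higher in SCNT ICM (21% and 16.9% of all genes), and 2 were lower and 1 higher in SCNT TE (17% and 18.8% of all genes). Myc and Mxi1 were lower in both, with -4.41 and -4.64 for Myc and -3.43 and -3.67 for Mxi1 in the ICM and the TE. Mycn was higher in the TE than in CCs by 1.599 ± 0.58 (SE, adjusted p = 0.0237). That value fell to 0.37 in libraries 1 to 3 (adjusted p = 0.723), and the call was lost without replicate 3, 4, 5 or 6. These comparisons and those of 6 hpa share the 3 CC libraries.

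Genes that MYC and MAX are known to act with, or on, were counted from lists chosen with earlier results of these data known. Of 56 MYC target genes tested, mostly of ribosome and nucleotide synthesis, 30 were higher and 1 lower at L2C than at E2C, where 23.6% and 11.1% of all genes were called, with a list median of 1.06 against 0.26 for all genes. Nop16, a nucleolar protein, and Tfrc, the transferrin receptor, rose by 2.77 and 2.68. From L2C to 4C, 16 were higher and 4 lower (11.7% and 26.5% of all genes, list median 0.57 against -0.33), and from 4C to 8C, 19 were higher and 1 lower (11.6% and 8.39% of all genes, list median 1.06 against 0.03). Against the morula, 3 were higher and 18 lower in the ICM (8.93% and 15.1% of all genes, list median -0.84 against -0.15) and 2 higher and 23 lower in the TE (11% and 10.9% of all genes, list median -0.92 against -0.03). These counts are a description and were not set against other lists.

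At the step from E2C to L2C the partner lists were counted in the same way, against 23.6% of all genes higher and 11.1% lower. Of 8 MYC cofactors, 3 were higher than at E2C, namely Zbtb17 (2.02), which encodes the MIZ1 partner of MYC in repression, and the helicases Ruvbl2 (1.501) and Ruvbl1 (1.37). Of 9 SIN3 corepressor genes, 1 was higher, the deacetylase Hdac1 (2.15), and 4 were lower, among them Sap30 (-3.09), Rbbp7 (-2.21) and Sin3a (-1.42). Of 9 PRC1.6 genes tested beside Mga, Cbx3 (3.58) and E2f6 (2.37) were higher and Cbx1 (-1.15) lower, shares close to those of all genes. Of 10 genes of MYC stability and turnover, 3 were higher, including Set (3.42). The 3 genes of the parallel MLX branch, which shares MXD1, MXD4 and MNT as partners, had no call at this step.

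In fertilized blastocysts the Max MO was followed by lower Max and Mga RNA in the ICM. The targeted gene, Max, was 38.0 and 8.42 TPM in control ICM and 6.82 and 0.443 TPM in Max MO ICM. In the TE it was 34.5 and 28.5 TPM in controls and 16.3 and 8.68 TPM after Max MO. The Mcrs1 MO libraries had 14.4 and 9.25 TPM in the ICM and 17.6 and 15.7 TPM in the TE. In each lineage both Max MO libraries were below both controls, whereas the Mcrs1 MO libraries were below both controls in the TE but not in the ICM. The difference in the ICM was -2.51 ± 0.80 (SE, adjusted p = 0.0397). Without control replicate 1 it was -1.49 (adjusted p = 0.177), without Max MO replicate 2 -1.29 (adjusted p = 0.280), and leaving out any of 8 other libraries of the model took the adjusted p past 0.05 as well. In the TE the difference was -1.32 ± 0.80 (SE) and was not called (adjusted p = 0.390). With each lineage fitted alone this turned round, the TE being called (-1.32 ± 0.36 SE, adjusted p = 0.0403) and the ICM not (adjusted p = 0.139). Over both lineages it was -1.92 ± 0.57 (SE, adjusted p = 0.0265), or -1.41 without control replicate 1 of the ICM (adjusted p = 0.0542).

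Counts of called members stood at 0 higher and 2 lower in the ICM after Max MO, against 8.65% and 15.1% of all genes. In the TE no member was called, 2 had an unadjusted limma p under 0.05, and 1.04% of all genes were called higher and 1.45% lower. Over both lineages 1 member was higher and 2 lower (6.15% and 14.3% of all genes). The median of all genes was -0.21 in the ICM, -0.19 in the TE and -0.23 over both. Under quantile normalization the share of higher among called genes was 52.6%, 52.6% and 53.6% in place of 36.5%, 41.8% and 30.1%.

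Mga was the member whose calls after Max MO held under every alternative run. All alternatives use the same control libraries, which differ from the MO libraries beyond the members. The reference genes held 85.5 to 90.3% of the TPM in the fertilized controls and 93.6 to 94.4% in the libraries of both MOs. The part of this difference in the values after either MO was not tested. Its level was 26.9 and 34.9 TPM in control ICM, 2.97 and 4.00 TPM after Max MO and 9.52 and 7.204 TPM after Mcrs1 MO. Every MO library is below both controls. The difference after Max MO was -2.83 ± 0.43 (SE, adjusted p = 0.00169) and stayed between -3.11 and -2.39, called, under all 20 alternatives. Without the ICM control that carries TE markers it was -3.01 (adjusted p = 0.00186). In the TE, Mga was 14.5 and 12.7 TPM in controls, 5.97 and 6.10 TPM after Max MO and 4.82 and 7.45 TPM after Mcrs1 MO, again without overlap. The TE differences were -1.05 ± 0.43 (SE) and -1.06 ± 0.43 (SE) and were not called (adjusted p = 0.199 and 0.160). The difference between the lineages (-1.78, adjusted p = 0.276) was not called either. Over both lineages the difference was -1.94 ± 0.31 (SE, adjusted p = 0.00135) after Max MO, and -2.03 without ICM control replicate 1 (adjusted p = 0.00102).

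Mcrs1 MO gave 1 member lower and 0 higher in the ICM, which was Mga, against 5.21% and 4.88% of all genes. The difference was -1.77 ± 0.43 (SE, adjusted p = 0.0278). It was -1.95 without control replicate 1 (adjusted p = 0.0180), and the call was lost without control replicate 2 (-1.59, adjusted p = 0.0592), without either Mcrs1 MO library (adjusted p = 0.105 and 0.121) and under quantile normalization (-1.50, adjusted p = 0.0591). In the TE no member was called, 1 had an unadjusted limma p under 0.05, and 1.77% of all genes were called higher and 3.31% lower. Over both lineages Mga was the 1 member lower (-1.41 ± 0.31 SE, adjusted p = 0.00862), with 0 higher, against 10.2% and 4.56% of all genes. Without ICM control replicate 1 it was -1.502 (adjusted p = 0.0058). Mcrs1, the targeted gene, was 253.3 and 310.1 TPM in control ICM and 86.8 and 73.4 TPM after its MO, a difference of -1.80 ± 0.21 (SE, adjusted p = 0.00333), or -1.94 without control replicate 1 (adjusted p = 3.9e-04). In the TE it was 219 and 294 TPM against 41.1 and 45.5 TPM, a difference of -2.53 ± 0.21 (SE, adjusted p = 8.7e-04). Quantile normalization moved the share of higher among called genes in the TE and over both lineages from 34.9% to 52.6% and from 31% to 50.8%.

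**Figure D4:**
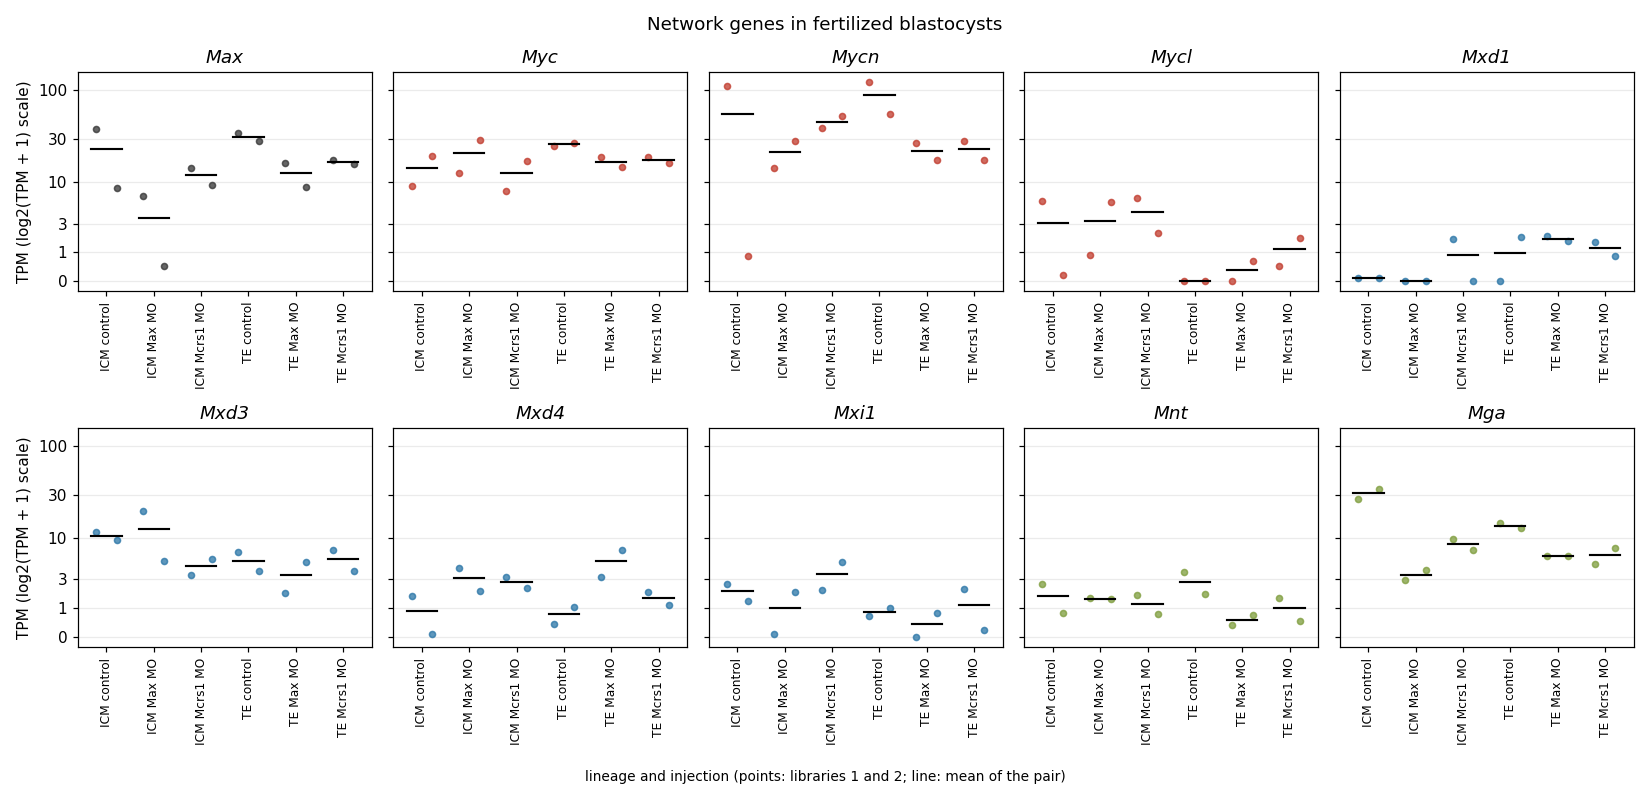
TPM of each member (y axis, log2(TPM + 1) scale) in the 2 ICM and 2 TE libraries (points) of control, Max MO and Mcrs1 MO blastocysts (x axis), with the mean of each pair (line). Mga after Max MO lies at 2.97 and 4.00 TPM in the ICM against 26.9 and 34.9 TPM in controls, and Mycn in control ICM is split between 111 and 0.832 TPM.

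Mycn in the ICM depended on which control library was used. Control ICM held 111 TPM in replicate 1 and 0.832 TPM in replicate 2, Max MO ICM 14.5 and 28.2 TPM, and Mcrs1 MO ICM 39.3 and 52.1 TPM. The controls lie on either side of all MO libraries, and the replicate with 111 TPM is the one with a TE marker sum of 16307. Without it, Mycn was higher by 3.53 after Max MO (adjusted p = 0.00141) and by 4.66 after Mcrs1 MO (adjusted p = 3.5e-04). Without the other control it was lower after Max MO, by -2.40 (adjusted p = 0.00579). The part of TE cells in these values was not tested.

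Mycn in the TE was 121 and 55.6 TPM in controls, 27.1 and 17.4 TPM after Max MO and 28.4 and 17.7 TPM after Mcrs1 MO. Both MO groups lie below both controls, with differences of -1.87 and -1.83 that were not called in the model of all 12 libraries. They were called when the TE was fitted alone (adjusted p = 0.0204 and 0.0164) and when either ICM control was left out (adjusted p = 0.0282 and 0.0220 for Max MO).

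**Figure D5:**
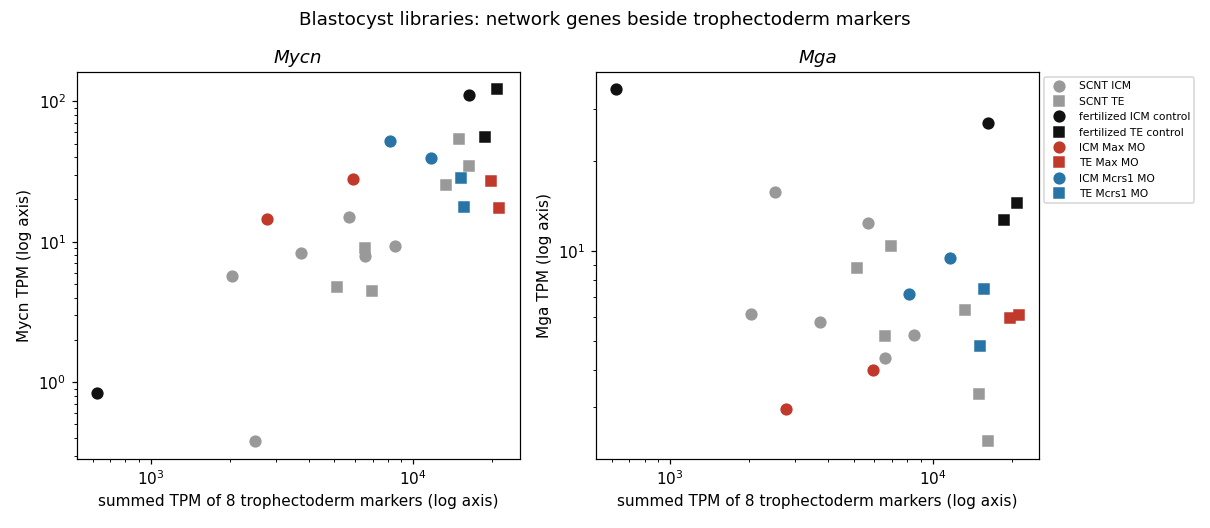
TPM of Mycn and of Mga (y axes, log scale) against the summed TPM of 8 TE markers (x axes, log scale) in each blastocyst library of either lineage, SCNT and fertilized (points, by group). In fertilized ICM controls, replicate 1 (marker sum 16307, Mycn 111 TPM) lies with the TE libraries and replicate 2 (622 and 0.832 TPM) apart from them, whereas Mga is 26.9 and 34.9 TPM in the pair.

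Among the other partners, Mxd4 was the 1 member higher over both lineages after Max MO. It was 1.70 and 0.0601 TPM in control ICM and 4.23 and 2.06 TPM after Max MO, and in the TE 0.375 and 1.07 TPM against 3.25 and 7.22 TPM. Neither lineage overlaps, and the difference was 1.52 ± 0.46 (SE, adjusted p = 0.0292). Without ICM control replicate 1 it was 1.86 (adjusted p = 0.00775), but the call was lost without ICM control replicate 2 (1.19, adjusted p = 0.0548), Max MO ICM replicate 1 (1.33), TE control replicate 1 (1.38) or Max MO TE replicate 2 (1.29). Myc was 8.96 and 19.6 TPM in control ICM, 12.6 and 29.3 TPM after Max MO and 7.77 and 17.1 TPM after Mcrs1 MO, and these groups overlap. In the TE it was 24.9 and 27.1 TPM in controls, 18.8 and 14.5 TPM after Max MO and 18.96 and 16.2 TPM after Mcrs1 MO, lower without overlap but not called. Mxd3 was 10.5 ± 1.51 TPM in control ICM, 12.7 ± 10.4 TPM after Max MO and 4.49 ± 1.49 TPM after Mcrs1 MO (SD, n = 2 each), and 1.91 to 7.16 TPM in the TE. Mxi1 and Mycl stayed at or below 6.40 TPM, Mnt at or below 3.77 TPM and Mxd1 at or below 1.97 TPM in all fertilized libraries.

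The MO effects were also set against each other. Max MO and Mcrs1 MO ICM differed in no member, with 2 at an unadjusted limma p under 0.05, where 0.312% of all genes were called higher and 1.5% lower. The difference for Mga was -1.06 (adjusted p = 0.209) and for Max -1.90 (adjusted p = 0.222). In the TE 0 members were called or had an unadjusted limma p under 0.05, with 0.0267% of all genes higher and 0% lower. No member differed in its MO effect between the lineages, with 1 member at an unadjusted limma p under 0.05 for Max MO and 0 for Mcrs1 MO, and 0% of all genes called in either direction for either MO. Control ICM and TE differed in no member, with 1 at an unadjusted limma p under 0.05 (1.72% of all genes called higher in the ICM, 1.2% lower). The comparisons of the 2 MOs share the same 4 control libraries.

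After Max MO, 5 MYC target genes were higher and 10 lower of 57 tested in the ICM, shares close to the 8.65% and 15.1% of all genes, with a list median of -0.14 against -0.21 for all genes. Without ICM control replicate 1 they were 3 and 11 (12.7% and 17.5% of all genes). Tfrc (-3.08) and Cad (-2.79), which starts pyrimidine synthesis, had the largest falls, and Dctpp1 (1.55, or 0.94 and not called without that control) and Nme1 (1.25), which handle nucleotides, the largest rises. In the TE 2 were higher and 1 lower (1.04% and 1.45% of all genes). After Mcrs1 MO 2 were higher and 8 lower in the ICM (4.88% and 5.21% of all genes), or 3 and 10 without that control (12% and 10.4%). Of 8 MYC cofactors 4 were lower and 0 higher after Max MO in the ICM, with Ep400 (-2.36), Trrap (-1.74) and Kat2a (-1.33) the lowest. These 3 encode subunits of histone acetyltransferase or histone exchange complexes, and without that control 5 cofactors were lower. In the SIN3 list 3 of 9 were higher, Sap30 (3.65), Sin3b (1.34) and Sap18 (1.22), and Sin3a was lower (-1.69). Without that control the counts were also 3 and 1, but Sap18 was 0.85 and not called. Of the 10 PRC1.6 genes beside Mga, 0 were called in the ICM or TE after Max MO, and 1 was higher and 2 lower in the ICM without that control. In the turnover list 5 of 10 genes were lower in the ICM, with Usp36 (-2.03), Gsk3b (-1.90) and Huwe1 (-1.86) the lowest, and 4 without that control. After Mcrs1 MO, Kat2a and Zbtb17 were the 2 cofactors called, both lower, in the ICM (-1.18 and -1.16) and in the TE (-2.05 and -1.34), and Sap18 was the 1 SIN3 gene higher in both (1.28 and 1.29). Without that control 4 cofactors were lower in the ICM, and Sap18 was 0.92 there and not called.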

How the data were processed

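Smart-seq2 RNA-seq of 56 CC and SCNT libraries and 12 libraries of fertilized blastocysts was used. The authors trimmed reads with cutadapt 1.16, aligned them to mm10 with HISAT2 and ran StringTie on each library; the submitters' processing notes also name Cufflinks and deepTools, and the annotation is not given in the sources used here. The deposited gene tables give, per library, coverage (mean read depth per base), FPKM and TPM. The deposited TPM are scaled over the loci assembled in that library, whose sum is 1000000, and the reference genes, which are listed beside these loci, make up 30.4 to 94.4% of it. Aligned sequence per library was taken as the ratio of the deposited coverage to the deposited FPKM, and TPM of rows with the same gene symbol were summed. No counts were used, so counting error cannot be given.

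The members and the gene lists were chosen with earlier results of these data known. Groups came from the sample labels. Values were analysed as log2(TPM + 1) with limma 3.58.1 (R 4.3.3, empirical Bayes with a mean trend) in 1 model of 10 CC and SCNT groups and 1 of 6 fertilized groups, on genes with a mean of at least 1 TPM over the libraries of the model. P-values were Benjamini-Hochberg adjusted over all genes tested, and the model was tested on simulated data. Groups next to each other in a member's order of means were tested with exact permutations of the libraries, two-sided (scipy 1.17.1). All 10 members are named, list genes only as the up to 3 highest and 3 lowest called ones, and genes like a member as the 3 with the highest Pearson r among genes with a mean of at least 5 TPM. Some genes that this rule names are not reported here. Coordinates are those of the deposited tables (mm10).

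Alternatives were a pseudocount of 0.1, filters at a mean of 5 TPM and above 0, TPM rescaled over reference genes, quantile normalization, smaller models, the replicate number as a block, libraries 1 to 3 and 4 to 6 apart, and each library left out in turn. Groups share replicate numbers. The 4C library with number 5 in its title carries number 6 in the name of its deposited table. The title's number was used, and values without replicate 5 or 6 or with the block rest on it. The labels do not say what a number marks, and the correlation of same-numbered deviations was over 0.1 in every pair for 14 hpa with 6 hpa (0.155 to 0.393) and ICM with TE (0.124 to 0.283), and in no other comparison with 3 or more pairs. Libraries with different numbers were not correlated, and libraries 1 to 3 and 4 to 6 differ as sets. These values therefore cannot show whether the numbers pair libraries. No library was a copy of another (highest r = 0.989).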

Additional observations from a re-analysis of the deposited data

Results flagged for a closer look

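Combinations of a member and an SCNT group of 4 to 10 libraries were examined where the group mean was at least 1 TPM. In 4 of these 50, 1 library stood apart from the rest by more than Dixon's limit for its group size. For combinations not selected by that library, chance gives about 1 in 20. Max was 32.1 TPM in SCNT ICM library 3, with the next library at 9.13 TPM. Mycl was 9.70 TPM in SCNT ICM library 1, against at most 0.0615 TPM in the other libraries of the group. Its group mean of 1.63 TPM passed the filter only through library 1, so this flag follows from the selection. Mxd3 was 32.02 TPM in 8C library 5 (next 14.9 TPM), and Mga was 45.8 TPM in L2C library 2 (next 19.6 TPM).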

How the results depend on the processing

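Of the 34 called differences of members, 15 were called under every alternative run (13 of 27 in CCs and SCNT embryos, 2 of 7 after MO injection) and 19 were lost under at least 1. The 17 calls between SCNT stages were 11 with the filter at a mean of 5 TPM, 18 with the replicate block and 15 to 18 with 1 replicate left out. Mycn and Mxi1 do not pass the filter at a mean of 5 TPM and so were not tested under it. The calls of the other members held there, and that of Mxd4 from L2C to 4C was added. The 10 calls against CCs were 14 with the replicate block and 8 to 11 with 1 replicate left out. The 5 calls after Max MO were 2 with all genes above 0 tested, 3 under quantile normalization, 5 with the replicate block and 2 to 7 with 1 library left out, and 3 in place of 2 for ICM and TE when each lineage was fitted alone. The 2 calls after Mcrs1 MO were 0 under quantile normalization, 2 with the replicate block and 1 to 5 with 1 library left out. Max MO against Mcrs1 MO gave 0 calls throughout. The 0 calls of MO effect by lineage and of ICM against TE in fertilized controls became 2 and 1 without ICM control replicate 1, all of them Mycn. No neighbouring groups in the order of levels differed at a pseudocount of 0.1 either (0 of 90), where these tests could likewise hardly have found a difference. Among differences called with all libraries or under the alternative, directions turned for Mycn only. They turned from 4C to 8C in libraries 4 to 6 (0.081), after Max MO in the ICM without 1 library (-2.40 to 3.53, the ends being without ICM control replicates 2 and 1) and after Mcrs1 MO over both lineages without 1 library (-1.55 to 1.42, likewise). Uncalled differences turned as well, such as Max after Mcrs1 MO in the ICM (-0.61, or 0.42 without ICM control replicate 1). The cause of these changes was not tested. The replicate block changed no call of a member in the comparisons of 14 hpa with 6 hpa and ICM with TE. In the other comparisons it added Mxd4 from L2C to 4C and from 4C to 8C, ended Mycn from 4C to 8C, and added against CCs Mxd3 at 6 hpa, Mxd1 in ICM and TE and Mxd4 in TE. With 2 libraries per group, the smallest difference that the MO comparisons can call is set by the spread of those pairs.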

Other observations

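Unstranded assembled loci without a gene symbol lay inside Mxi1 in 37 libraries. There were 40 of them, between chr19:53337823 and 53341556 (mm10), and 0 overlapped an exon of any gene in GENCODE vM21. Their TPM per library had a median of 44.8 in CCs, 22.8 at 14 hpa (5 of 6 libraries), 25.1 at E2C (6 of 6 libraries), 39.7 at L2C and 17.2 at 4C, and none was assembled at 6 hpa (0 of 6 libraries). Mxi1 itself had a median of 0.427 TPM at 14 hpa and 1.73 TPM at E2C. No locus of this kind was assembled in the fertilized controls.

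In fertilized blastocysts the MXD family held, after Max MO, a mean of 25.1% of the summed TPM in the ICM and 16.4% in the TE, against 11.1% and 4.82% in controls and 12.2% and 12.3% after Mcrs1 MO. The ICM libraries after Max MO held 38.2 and 11.9% and overlap the controls (7.62 and 14.5%), while the TE libraries held 9.42 and 23.3% against 3.75 and 5.89%. The 10 genes summed to 63.6 and 78.4 TPM in Max MO ICM against 209.1 and 75.6 TPM in control ICM, and to 75.7 and 62.6 TPM against 206.9 and 133.7 TPM in the TE, so the share also moves with the TPM of the other members. MNT and MGA held a mean of 30.6% in control ICM, where the libraries differed widely (SD 23.4, n = 2), 7.05% after Max MO and 10.2% after Mcrs1 MO. With 2 libraries per group these shares were not tested.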
